A study of Mus musculus with 18 samples.

Results

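The colony-stimulating factors and their receptors were described by the RNA of 8 genes in bone marrow-derived macrophages (BMMs). The genes were chosen by name, as the ligands Csf1, Csf2 and Csf3 and the receptor genes Csf1r, Csf2ra, Csf2rb, Csf2rb2 and Csf3r. All 8 were found by symbol and identifier among 38887 genes measured in each of 18 libraries. BMMs came from female C57BL/6J mice aged 10 to 23 weeks, were grown from bone marrow for 6 days in 50 ng/ml M-CSF, and were then left untreated or exposed to lipopolysaccharide (LPS, 100 ng/ml), a component of the outer membrane of bacteria, for 4 h. Since the medium held recombinant M-CSF throughout, the CSF1 protein was supplied to every culture, and only the cells' own Csf1 RNA was measured.

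Wild-type (WT) mice were described by the study as Lyz2-Cre animals, in which Cre is driven by the Lyz2 promoter of the myeloid lineage. GILZ KO mice carried Lyz2-Cre and loxP sites around exon 6 of Tsc22d3, the gene of the glucocorticoid-induced leucine zipper GILZ. GILZ TG mice carried Lyz2-Cre and a Tsc22d3 cDNA behind a loxP-flanked stop cassette under the ROSA26 promoter. Each of the 6 groups had 3 libraries from separate preparations. The total per library ranged from 14583055 to 38557029 reads on genes, with a median of 24450362. After LPS the median was lowest in GILZ KO, at 15491518 reads.

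Levels are given in TPM, which the authors computed and which scale the reads of a gene by transcript length and by the library total. Tsc22d3 RNA was 16.5 ± 2.08 TPM in untreated WT, 2.34 ± 0.461 in GILZ KO and 155.9 ± 3.93 in GILZ TG (SD, n = 3), in the order of the labels. After LPS it was 5.15 ± 0.627, 2.91 ± 0.392 and 131.7 ± 7.64 TPM. Lyz2, the lysozyme gene into which Cre was inserted, was at 12840 ± 2276 TPM in untreated WT, against 33.6 ± 10.6 in GILZ KO and 33.0 ± 18.3 in GILZ TG. The WT libraries therefore held abundant Lyz2 RNA and those of both other genotypes held little, and how many Cre alleles the WT animals carried was not tested. Both other genotypes thus differed from WT in Lyz2 RNA as well as in Tsc22d3 RNA. In any difference from WT these cannot be told apart, and the part of either was not tested.

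The cell type was checked with marker lists. Macrophage markers summed to between 3399 and 4728 TPM in the 18 libraries, led by Cd68 with a mean of 1314 TPM, and none of the 10 was at 0. Stromal fibroblast markers, led by Col1a1, summed to between 86.3 and 124.8 TPM in replicates 1 and 2 of GILZ TG, untreated and after LPS, and to between 5.42 and 23.5 TPM in the 14 other libraries. Neutrophil lineage markers, led by S100a9, ranged from 187.6 to 516.6 TPM in the same 4 libraries and from 20.7 to 83.6 TPM in the others. B cell markers, led by Ighm, behaved alike, with 81.8 to 157.8 TPM against 16.9 to 36.1 TPM. Dendritic cell markers, led by Itgax, gave 14.3 to 21.3 TPM against 4.61 to 10.95 TPM. Replicates 1 and 2 of GILZ TG thus stood apart from replicate 3 and from the other genotypes, and values without them are given beside the differences between genotypes that changed. Endothelial markers, led by Vwf, lay between 19.2 and 42.2 TPM, and T cell markers, led by Il7r and with Cd3d, Cd3e and Cd8a at 0 in every library, between 27.5 and 86.7 TPM. Erythroid markers, led by Hba-a1, and mast cell and basophil markers, led by Gata2 and with Fcer1a and Mcpt4 at 0, did not exceed 0.88 and 0.89 TPM.

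Colony-stimulating factors are secreted proteins that drive the survival, growth and differentiation of myeloid cells. CSF1 (M-CSF) acts on macrophages through CSF1R, a receptor tyrosine kinase that defines the lineage. CSF2 (GM-CSF) binds an alpha subunit, CSF2RA, which pairs with the common beta subunit CSF2RB that also serves the receptors of IL-3 and IL-5, and mice have a second beta gene, Csf2rb2, whose product serves IL-3. CSF3 (G-CSF) acts on the neutrophil lineage through CSF3R. Activated macrophages are a known source of these ligands, and the RNA of several cytokines of this kind is short-lived because proteins such as tristetraprolin bind AU-rich elements in the 3′ UTR.

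In the GRCm38 annotation (GENCODE vM21), Csf2 (ENSMUSG00000018916) lies at chr11:54247271-54249667 on the minus strand and Csf3 (ENSMUSG00000038067) at chr11:98701263-98703629 on the plus strand. Csf1 (ENSMUSG00000014599) lies at chr3:107741048-107760469. Csf3r (ENSMUSG00000028859) is at chr4:126024550-126044440 and Csf2ra (ENSMUSG00000059326) at chr19:61223957-61228429. Csf2rb (ENSMUSG00000071713) at chr15:78325752-78353847 and Csf2rb2 (ENSMUSG00000071714) at chr15:78282507-78305721 are neighbours, 20030 bases apart on opposite strands.

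The ligand transcripts differ in a feature of their 3′ UTR that binds the regulators of cytokine RNA, the pentamer ATTTA. The 317 bases of the Csf2 3′ UTR held 9 of them and the 669 bases of that of Csf3 held 6, whereas that of Csf1 held 4 in 2111 bases. Per 100 bases this is 2.84 for Csf2, 0.897 for Csf3 and 0.189 for Csf1, against a median of 0.112 over 20643 mouse genes, and 61.6% of these genes held at least 1. The nonamer TTATTTATT, which overlaps the pentamer, occurred 4 times in Csf2 and in no other of the 8 genes, against 6.91% of all genes. Csf1r held 3 pentamers in 1669 bases, and Csf2ra, Csf2rb, Csf2rb2 and Csf3r held none. The densest stretch of 30 bases in the 2 ligands with the highest density is shown, read 5′ to 3′ on the strand of the gene with each ATTTA in capitals, for Csf2 at chr11:54247329-54247358 and for Csf3 at chr11:98702984-98703013.
Csf2: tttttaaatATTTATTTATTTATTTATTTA
Csf3: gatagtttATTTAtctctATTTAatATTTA

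The beta subunit genes are near copies, which limits how well their reads can be told apart. Their coding sequences matched at 95.2% of 2631 aligned bases, with a longest identical run of 242 bases, and 10.7% of the 75-base stretches of the Csf2rb transcript also occurred in Csf2rb2. Reads were 75 bases long, and the deposited counts of these 2 genes were not whole in any of the 18 libraries, whereas those of the other 6 genes were whole throughout. The values of Csf2rb and Csf2rb2 are therefore uncertain in how they divide shared reads. The stretch of 60 coding bases where they differ most is shown, with the differing bases in capitals, at coding positions 304 to 363 of Csf2rb and 307 to 366 of Csf2rb2.
Csf2rb: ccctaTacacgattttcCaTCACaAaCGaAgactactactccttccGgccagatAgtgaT
Csf2rb2: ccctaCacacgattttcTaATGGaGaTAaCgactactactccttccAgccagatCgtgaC

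Without LPS, the receptors were expressed and the ligands were low. In untreated WT, Csf1r (ENSMUSG00000024621, chr18:61100598-61132149) was highest, at 787.9, 765.7 and 736.6 TPM in the 3 libraries. Csf2rb2 followed with 209.5, 181.6 and 154.7 TPM, Csf2ra with 138.9, 144.7 and 144.4 TPM, and Csf2rb with 144.4, 142.7 and 131.5 TPM. The libraries of Csf2ra and Csf2rb overlapped, so their order was not resolved. Csf3r was far lower, with 7.09, 6.29 and 4.26 TPM, and overlapped with Csf1 at 5.09, 4.71 and 5.37 TPM. Csf3 and Csf2 were at the limit of detection, with 1 to 7 and 0 to 2 reads per library across all 9 untreated libraries. The same order, with Csf1r first and both low ligands last, was seen in GILZ KO and GILZ TG, except that Csf2ra lay below Csf2rb in GILZ KO and that Csf1 lay above Csf3r and Csf2 just above Csf3 in GILZ TG.

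**Figure D1:**
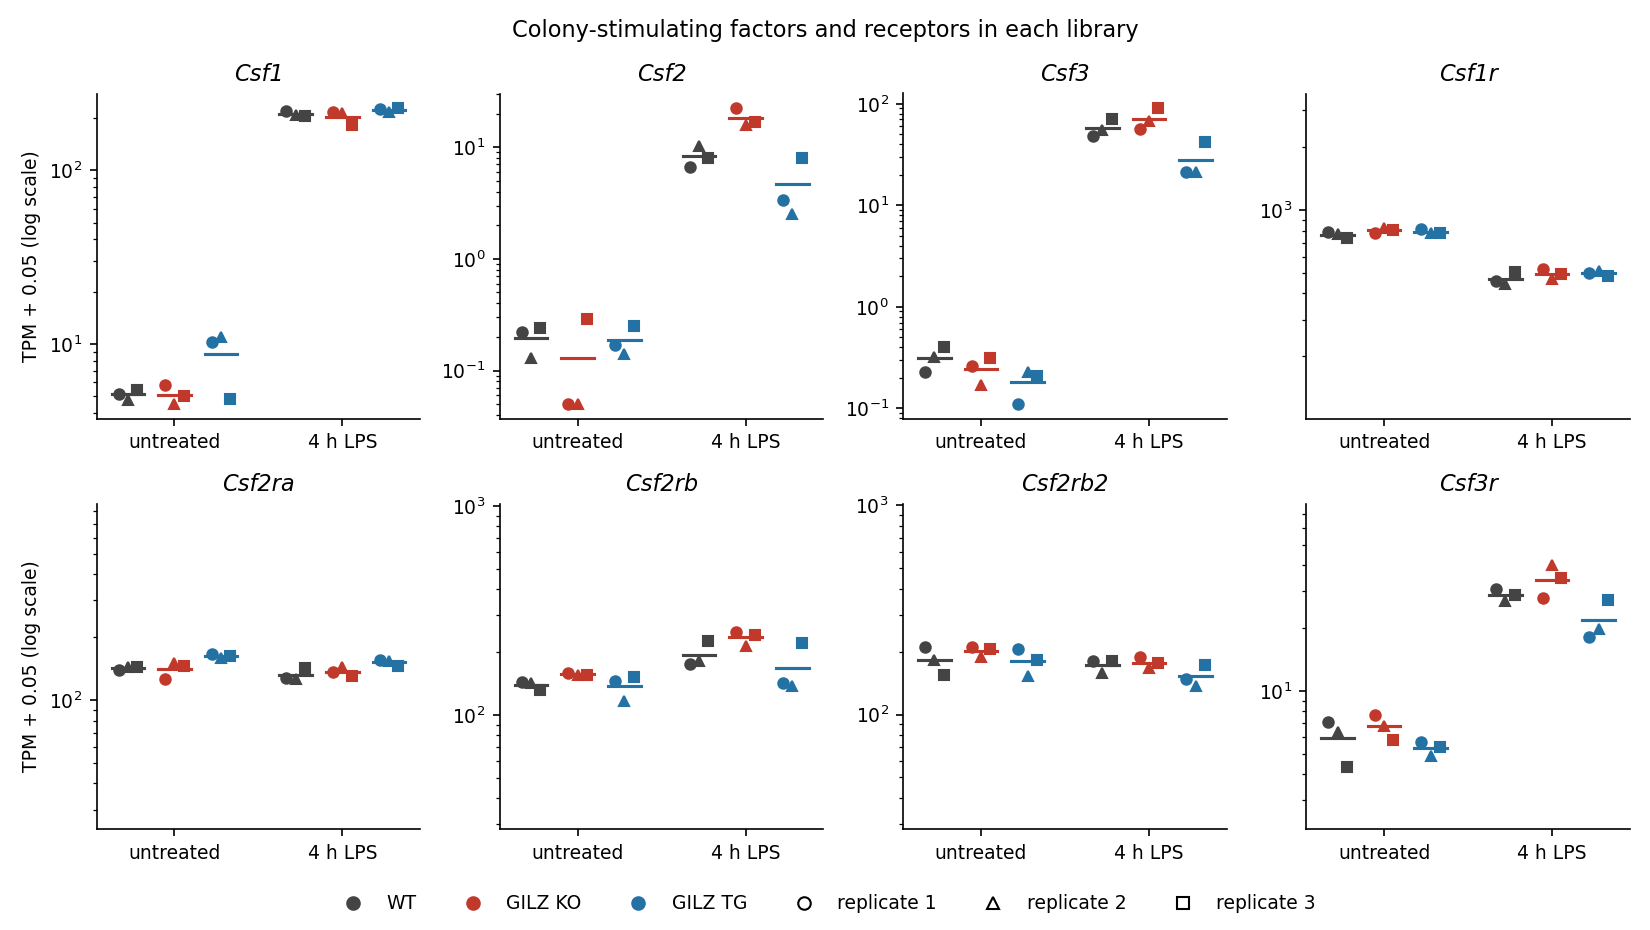
TPM of the 8 genes in each of the 18 libraries, with 0.05 added and a log axis; colours mark the genotype, symbols the replicate and lines the group mean. The 3 ligands and Csf3r are higher after LPS in every genotype, and Csf1r is lower in TPM in every genotype.

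After LPS, the 3 ligand genes rose strongly in every genotype. Csf1 reached 221, 208 and 206 TPM in WT, 218, 213 and 183 TPM in GILZ KO, and 227, 217 and 228 TPM in GILZ TG. It thereby moved from sixth to second place among the 8 genes in WT, with libraries that overlapped those of Csf2rb. The ratio of mean TPM to untreated cells was 41.9 in WT, 40.6 in GILZ KO and 25.9 in GILZ TG, and the groups did not overlap. The ratio in GILZ TG rests on untreated replicates 1 and 2, since without preparations 1 and 2 the fold fitted by edgeR was 66.4, against 39.3 with them.

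Csf3, the granulocyte factor, was at 0.18, 0.27 and 0.35 TPM in untreated WT and at 47.9, 55.1 and 70.0 TPM after LPS. GILZ KO went from 0.21, 0.12 and 0.26 TPM to 56.7, 67.1 and 90.2 TPM, and GILZ TG from 0.06, 0.18 and 0.16 TPM to 21.1, 21.4 and 41.8 TPM. All libraries after LPS were far above all untreated ones. Because the untreated values rest on few reads, the change was also taken from reads summed over the 3 libraries of a group, per library total. This gave 17 and 3223 reads in WT, a ratio of 211 with an exact 95% interval of 132 to 363 that covers counting error only. GILZ KO gave a ratio of 354 (192 to 739) and GILZ TG one of 177 (89.6 to 411), with intervals that overlapped.

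Csf2 was the lowest of the ligands after LPS, and without it lay near Csf3, with libraries that overlapped. Untreated WT libraries held 2, 1 and 2 reads, those of GILZ KO 0, 0 and 2, and those of GILZ TG 1, 1 and 2. After LPS they held 66, 94 and 85 reads in WT, 201, 91 and 105 in GILZ KO, and 52, 33 and 66 in GILZ TG. The ratio of summed reads per library total was 54.7 (exact 95% interval 23.1 to 170.0) in WT, 257 (70.6 to 2130) in GILZ KO and 29.9 (11.4 to 111) in GILZ TG. The width of these intervals comes from the 2 to 5 untreated reads of a group, which in GILZ KO were all in replicate 3.

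Among the receptors, Csf3r, the G-CSF receptor, rose in every genotype. In WT it went from 7.09, 6.29 and 4.26 TPM to 30.6, 26.8 and 28.9 TPM, in GILZ KO from 7.67, 6.73 and 5.76 to 27.8, 39.8 and 34.5 TPM, and in GILZ TG from 5.67, 4.82 and 5.34 to 18.1, 19.7 and 27.3 TPM. The groups did not overlap in any genotype, and the ratio of means was between 4.11 and 5.06. Csf1r, in contrast, was lower in TPM, with 460.4, 441.8 and 504.6 TPM in WT after LPS, 522.4, 470.6 and 497.6 in GILZ KO and 501.8, 512.8 and 486.9 in GILZ TG. Every library after LPS was below every untreated library, whose lowest Csf1r value was 736.6 TPM.

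The calls of Csf1r, Csf2ra, Csf2rb and Csf2rb2 depended on the scale, and most genes were lower in TPM after LPS. Because TPM are relative to the library total, whether the amount of RNA of these genes changed in the cells was not tested. The median gene, of 13169 tested, was lower in TPM by 0.62 on the log2 scale in WT, 0.627 in GILZ KO and 0.623 in GILZ TG. Over the same comparison, the share of reads taken by the 20 genes that gained most, led by Rsad2 and Cxcl10 in WT, went from 0.5% to 8.85%. TMM factors, which edgeR uses to align the bulk of genes, set this median near 0. With them, 7 of the 8 genes passed the threshold in each genotype, all higher after LPS, where 68.6% of genes were called in WT, 68.5% in GILZ KO and 68.7% in GILZ TG, and 33.5%, 33.2% and 33.6% were called higher. Csf1r was the exception, with a log2 change of -0.07 (95% interval -0.18 to 0.03, adjusted p = 0.211, edgeR) in WT, -0.05 in GILZ KO and -0.03 in GILZ TG.

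With library totals as the scale, 84.2%, 82.7% and 83.8% of genes were called in WT, GILZ KO and GILZ TG, and 81.1% to 81.5% of these calls were lower. On this scale Csf1r fell by 0.75 (SE 0.06, adjusted p = 1.56e-09, edgeR) in WT, by 0.69 in GILZ KO and by 0.70 in GILZ TG. Csf2ra changed from 0.52 with TMM to -0.16 in WT, and Csf2rb2 from 0.56 to -0.12, so the direction of both turned with the scale. Csf2rb kept a higher level on both scales, with 1.11 and 0.43 in WT and 1.22 and 0.59 in GILZ KO, all called, whereas in GILZ TG it was 0.91 with TMM and 0.23, not called, with library totals (adjusted p = 0.153, edgeR). In total, 7 of 8 genes were called in WT, 5 higher and 2 lower, 6 in GILZ KO, 5 higher and 1 lower, and 6 in GILZ TG, 4 higher and 2 lower. Csf1, Csf2, Csf3 and Csf3r were higher on both scales in each genotype, with a log2 change of Csf1 in WT of 5.96 (SE 0.20) with TMM and 5.28 (SE 0.19) with library totals, and of Csf3r of 2.88 (SE 0.16) and 2.20 (SE 0.14).

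**Figure D2:**
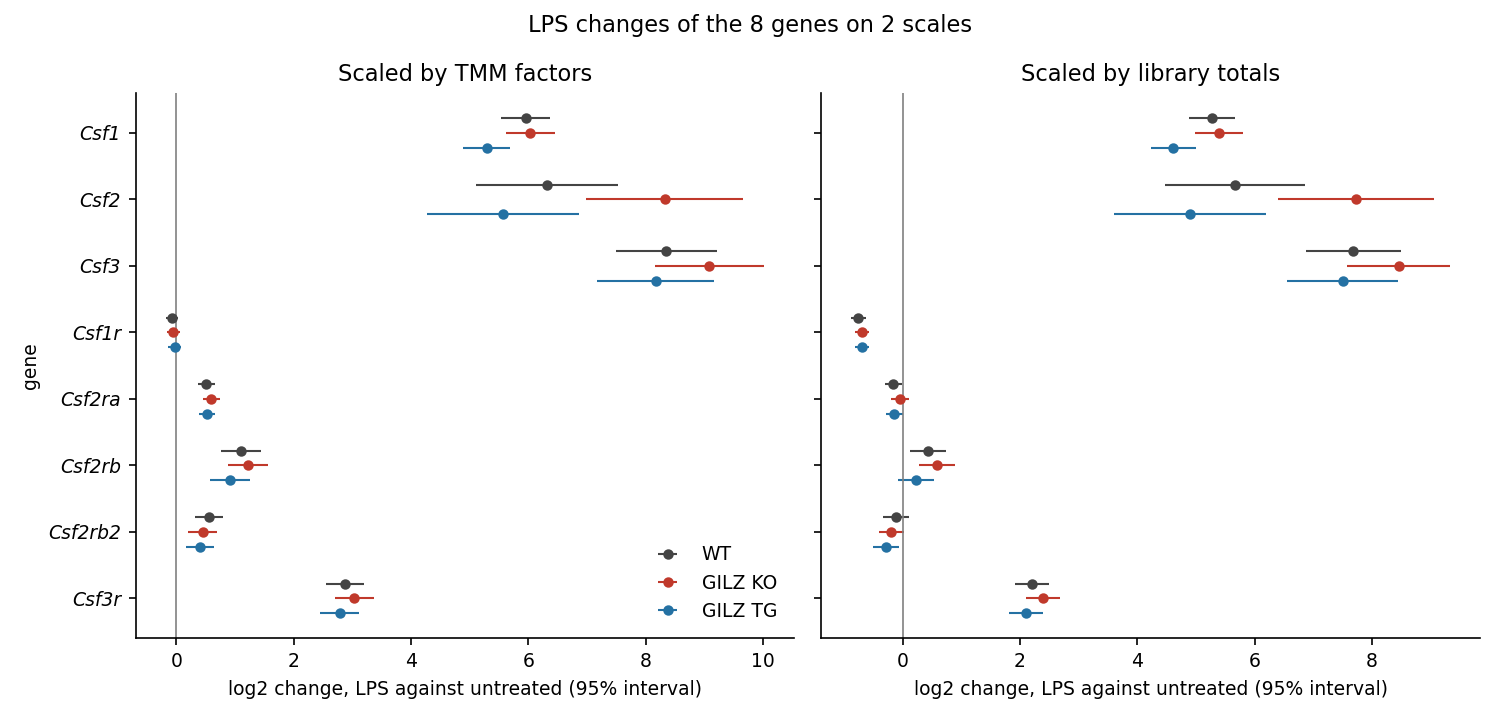
The log2 change of each gene from untreated to LPS with its 95% interval from edgeR, scaled by TMM factors (left) or library totals (right); colours mark the genotype. Csf1, Csf2, Csf3 and Csf3r lie right of 0 in both panels, and Csf1r lies near 0 on the left and left of 0 on the right.

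Ratios between receptor genes within a library do not depend on this scaling. The number of Csf2rb transcripts per Csf2ra transcript, the beta and alpha subunits of the GM-CSF receptor, was 1.04, 0.986 and 0.911 in untreated WT and 1.37, 1.43 and 1.60 after LPS. In GILZ KO it went from 1.25, 1.03 and 1.06 to 1.83, 1.5 and 1.84. In both genotypes the groups did not overlap. In GILZ TG it went from 0.874, 0.732 and 0.931 to 0.918, 0.892 and 1.52, where only replicate 3 lay above all untreated libraries and in the range of WT after LPS. The untreated and LPS libraries of one number correlated in GILZ TG (0.266, 0.397 and 0.605), and within each number this ratio was higher after LPS. With both beta genes summed, which is less affected by how their shared reads were divided, the ratio to Csf2ra went from 2.55, 2.24 and 1.98 to 2.78, 2.69 and 2.88 in WT, where the groups did not overlap. In GILZ KO it went from 2.91, 2.29 and 2.47 to 3.20, 2.65 and 3.19, and in GILZ TG from 2.10, 1.69 and 2.05 to 1.88, 1.79 and 2.70, and in both the groups overlapped. This summed ratio was lower after LPS in replicate 1 of GILZ TG and higher in replicates 2 and 3.

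The balance of the beta genes also moved. Csf2rb2 per Csf2rb was 1.45, 1.27 and 1.18 in untreated WT and 1.03, 0.878 and 0.795 after LPS, with means of 1.29 and 0.753 in GILZ KO and of 1.30 and 0.942 in GILZ TG, and the groups did not overlap in any genotype. Both genes share reads, so the size of this ratio is uncertain. Csf1r per Csf2ra went from 5.36 ± 0.290 to 3.55 ± 0.0466 in WT, from 5.70 ± 0.373 to 3.63 ± 0.305 in GILZ KO and from 4.84 ± 0.0853 to 3.30 ± 0.0546 in GILZ TG (SD, n = 3). Relative to the alpha subunit of the GM-CSF receptor, the M-CSF receptor RNA was lower after LPS, with no overlap in any genotype.

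**Figure D3:**
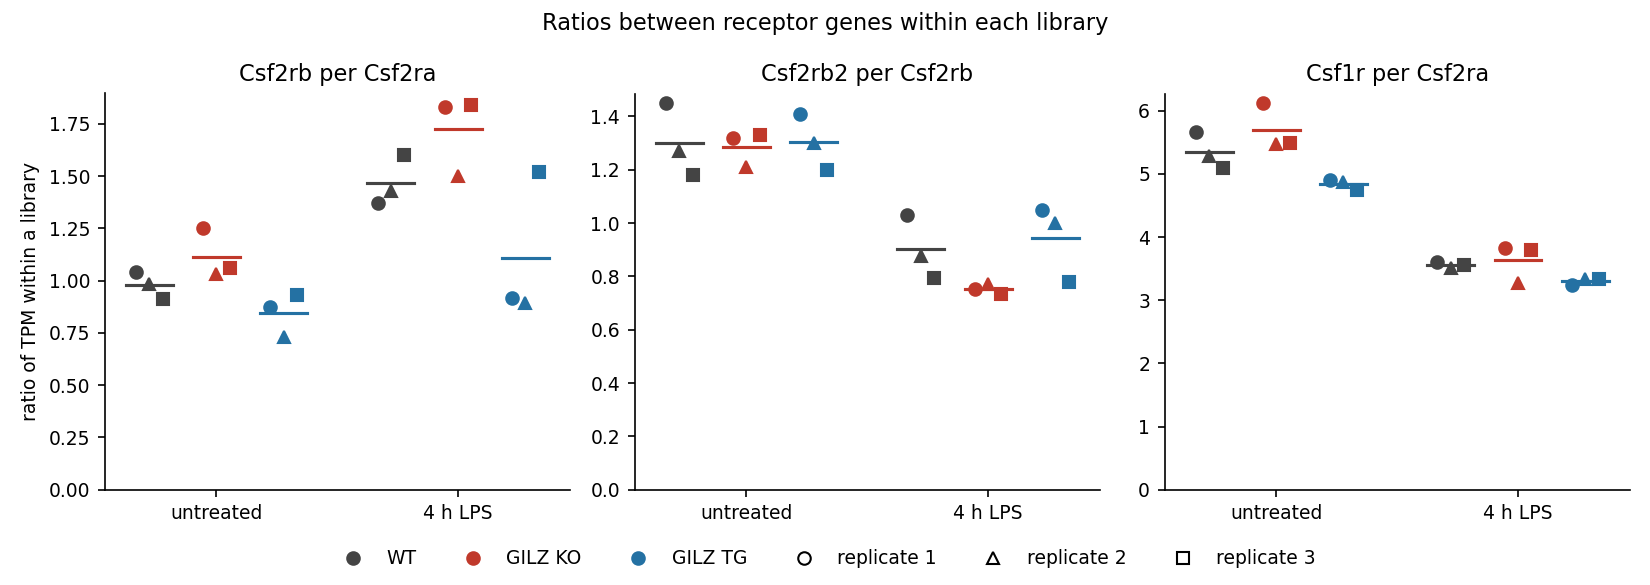
Ratios of TPM within each library, with symbols for the replicate, colours for the genotype and lines for the mean. After LPS, Csf2rb per Csf2ra lies above every untreated library of the genotype except in replicates 1 and 2 of GILZ TG, and Csf2rb2 per Csf2rb and Csf1r per Csf2ra are lower after LPS.

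Genotypes were compared within a treatment. Without LPS, none of the 6 genes with enough reads was called by edgeR in GILZ KO against WT, where 0.0951% of all genes were called, and none had an unadjusted p below 0.05. None was called in GILZ TG against WT (0.642% of genes), with Csf1 and Csf2ra below 0.05 before adjustment. DESeq2 and limma also called 0 in both comparisons. In GILZ TG against WT, Csf1 was at 0.77 (SE 0.23), and at 0.08 without preparations 1 and 2, which leaves 1 GILZ TG library. It was called higher without untreated replicate 3 of GILZ TG. Leaving out 1 library gave 16 to 665 calls over all genes, against 81 in the reported fit. Csf1r was nearly equal, with a log2 difference of 0.03 (95% interval -0.07 to 0.13) in GILZ KO and 0.04 (-0.06 to 0.14) in GILZ TG against WT. Csf2 and Csf3 did not pass the filter on low counts in untreated cells, and neither was called between genotypes without the filter or with all 18 libraries in one fit.

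Csf1 was the 1 gene of the 6 that edgeR called between GILZ KO and GILZ TG without LPS, where 4.94% of genes were called. DESeq2 called Csf1 and Csf2ra, and limma at both pseudocounts and edgeR on the 6 libraries compared called neither. It was at 10.3, 10.96 and 4.76 TPM in GILZ TG, 5.76, 4.44 and 4.92 in GILZ KO, and 5.09, 4.71 and 5.37 in WT. Replicates 1 and 2 of GILZ TG were above every other untreated library, and replicate 3 was within the range of the other genotypes. The difference of GILZ KO from GILZ TG was -0.95 on the log2 scale (SE 0.24, adjusted p = 0.0497, edgeR), and it was not called when any 1 of the GILZ KO libraries or replicate 1 or 2 of GILZ TG was left out (-1.13 to -0.76, adjusted p from 0.104 to 0.168). The same 2 libraries held 108.8 and 124.8 TPM of stromal fibroblast markers, against 11.1 TPM in replicate 3, with Col1a1 at 44.2, 51.3 and 4.98 TPM, and 3 of the 7 markers tested, Col1a1, Col1a2 and Col3a1, were called lower in GILZ KO. S100a9, Ltf, Igkc and Itgax of the neutrophil, B cell and dendritic cell lists were also called lower there, as were the macrophage markers Fcgr1 and C1qa, and Cd79b of the B cell list and Vwf of the endothelial list were called higher. Without preparations 1 and 2 of GILZ TG, which leaves 1 untreated GILZ TG library, the Csf1 difference was -0.25, against -0.95 with them. The part of these cells in the Csf1 level was not tested, and in bulk RNA more cells of a type and more RNA per cell cannot be told apart.

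**Figure D4:**
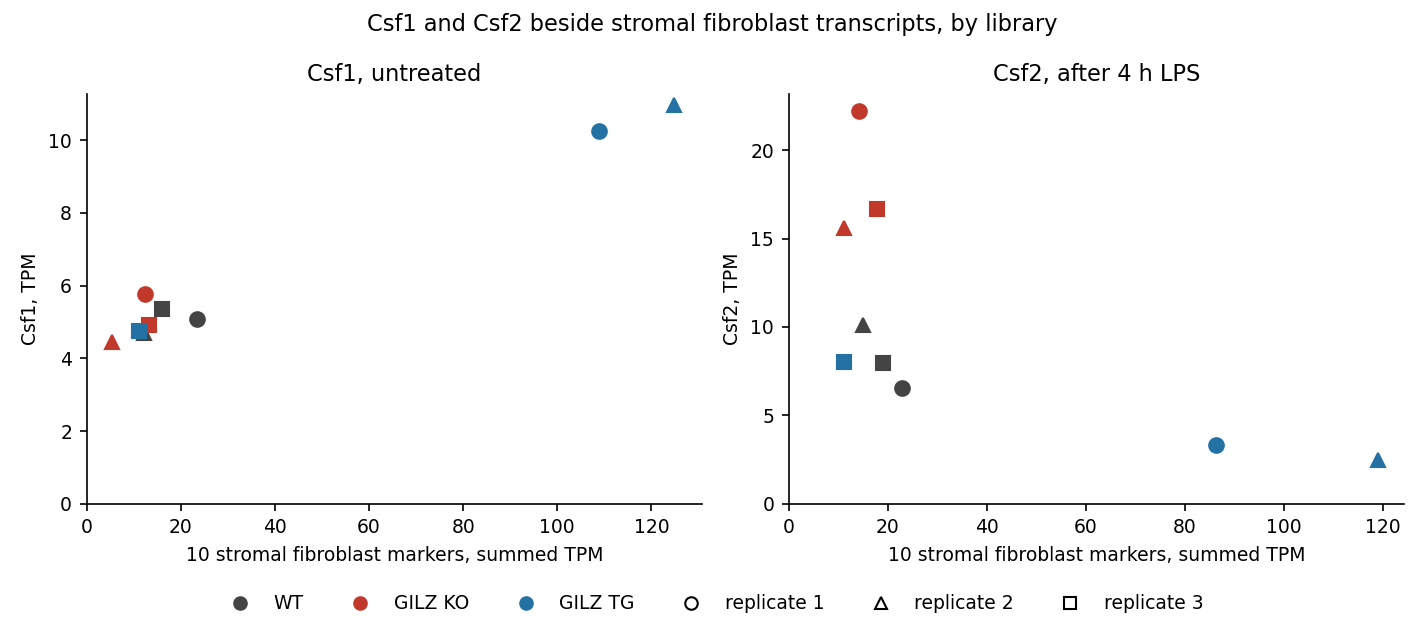
Csf1 in the 9 untreated libraries (left) and Csf2 in the 9 libraries after LPS (right), in TPM, against the summed TPM of 10 stromal fibroblast markers in the same library. Replicates 1 and 2 of GILZ TG lie far to the right in both panels, with the 2 highest values of Csf1 and the 2 lowest of Csf2.

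After LPS, edgeR and DESeq2 called Csf2 and Csf3 higher in GILZ KO than in GILZ TG, whereas limma called Csf2 alone with a pseudocount of 1 and neither with 0.1. Csf2 was at 22.2, 15.6 and 16.7 TPM in GILZ KO, 6.57, 10.1 and 7.98 in WT and 3.30, 2.47 and 8.01 in GILZ TG. The GILZ KO libraries were above all others, and replicate 3 of GILZ TG was within the range of WT. The log2 difference of GILZ KO from GILZ TG was 2.05 (SE 0.36, adjusted p = 0.0183, edgeR), a 4.14-fold difference. It was not called without replicate 1 or 3 of GILZ KO, or without replicate 1 or 2 of GILZ TG (1.72 to 2.09, adjusted p from 0.0562 to 0.107). Against WT it was 1.14 (SE 0.34, adjusted p = 0.341) in GILZ KO and -0.91 (SE 0.37, adjusted p = 0.265) in GILZ TG, and neither passed the threshold. Without replicate 3 of GILZ TG after LPS, Csf2, Csf3, Csf3r and Csf2rb were all called lower in GILZ TG than in WT. Calls over all genes moved as well, from 56 in the reported fit to between 15 and 1067 with 1 library left out. The number over all genes for the fit without replicate 3 of GILZ TG alone is not reported here.

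Csf3 followed with 56.7, 67.1 and 90.2 TPM in GILZ KO, 47.9, 55.1 and 70.0 in WT and 21.1, 21.4 and 41.8 in GILZ TG. The libraries of GILZ KO and WT overlapped, and those of GILZ TG were below both. GILZ KO and GILZ TG differed by 1.35 (SE 0.28, adjusted p = 0.0325, edgeR), a call lost without any 1 of these libraries except replicate 3 of GILZ TG (1.13 to 1.52, adjusted p from 0.0763 to 0.129). The difference of GILZ TG from WT was -1.05 (SE 0.27, adjusted p = 0.122, edgeR), which was called without a filter, with a replicate block and with all 18 libraries in one fit. Between GILZ KO and WT the difference was 0.30 with a 95% interval of -0.29 to 0.89. These were the 2 members of 8 called in GILZ KO against GILZ TG, where 2.6% of all genes were called, and none was called by edgeR in GILZ KO against WT (0.0822%) or GILZ TG against WT (0.46%). Before adjustment, Csf2 was below 0.05 in GILZ KO against WT, and Csf2, Csf3 and Csf2ra in GILZ TG against WT, and DESeq2 and limma called 0 in both.

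Of the receptors after LPS, Csf3r, Csf2rb and Csf2rb2 showed the same order of means and did not pass the threshold in edgeR. Csf3r differed by 0.59 (SE 0.15, adjusted p = 0.0593, edgeR) between GILZ KO and GILZ TG, whose libraries did not overlap, with 27.8 to 39.8 against 18.1 to 27.3 TPM. It was called with DESeq2, without a filter on low counts, with library totals, with a replicate block and with all 18 libraries in one fit. Csf2rb was at 249.9, 214.8 and 241.1 TPM in GILZ KO, 174.8, 180.4 and 227.2 in WT, and 142.2, 137.0 and 221.8 in GILZ TG, a difference of 0.48 (SE 0.18, adjusted p = 0.162, edgeR) between GILZ KO and GILZ TG that was called without the filter. Without preparations 1 and 2 of GILZ TG, which leaves 1 GILZ TG library after LPS, the differences were 0.24 for Csf3r and 0.04 for Csf2rb. Csf2rb2 was at 187.6, 166.1 and 177.0 TPM in GILZ KO, 180.4, 158.4 and 180.7 in WT and 148.6, 137.5 and 172.7 in GILZ TG. GILZ KO and GILZ TG differed in it by 0.20 (adjusted p = 0.300, edgeR), which was called without replicate 3 of GILZ TG, and by -0.01 without preparations 1 and 2. In Csf2, Csf3, Csf3r, Csf2rb and Csf2rb2 alike, replicate 3 of GILZ TG was the highest of its group. Csf1, Csf1r and Csf2ra were not called between genotypes after LPS, with means of 212, 205 and 224 TPM for Csf1, 468.9, 496.9 and 500.5 for Csf1r and 131.9, 137.1 and 151.6 for Csf2ra in WT, GILZ KO and GILZ TG. Between GILZ KO and GILZ TG the log2 difference was -0.18 for Csf1 (95% interval -0.33 to -0.03), -0.15 for Csf2ra (-0.29 to -0.01) and -0.02 for Csf1r (-0.16 to 0.13).

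Replicates 1 and 2 of GILZ TG were the lowest 2 of the 9 libraries after LPS in Csf2, Csf3, Csf3r, Csf2rb and Csf2rb2. They held 86.3 and 118.95 TPM of stromal fibroblast markers, 217.8 and 516.6 TPM of neutrophil lineage markers and 81.8 and 149.4 TPM of B cell markers, against 11.2, 83.6 and 26.1 TPM in replicate 3. Leaving out preparations 1 and 2 gave 1.14 for Csf2 and 0.73 for Csf3 between GILZ KO and GILZ TG, neither was called, and 0.27% of all genes were called with the 1 library left. Against WT the 1 library left, assumed to vary like the other groups, gave -0.43 for Csf3 and an interval of -0.64 to 0.63 (95%) for Csf2. Without replicate 3 of GILZ TG, GILZ KO exceeded GILZ TG by 2.65 for Csf2 and by 1.75 for Csf3. How far the other cells contribute was not tested.

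**Figure D5:**
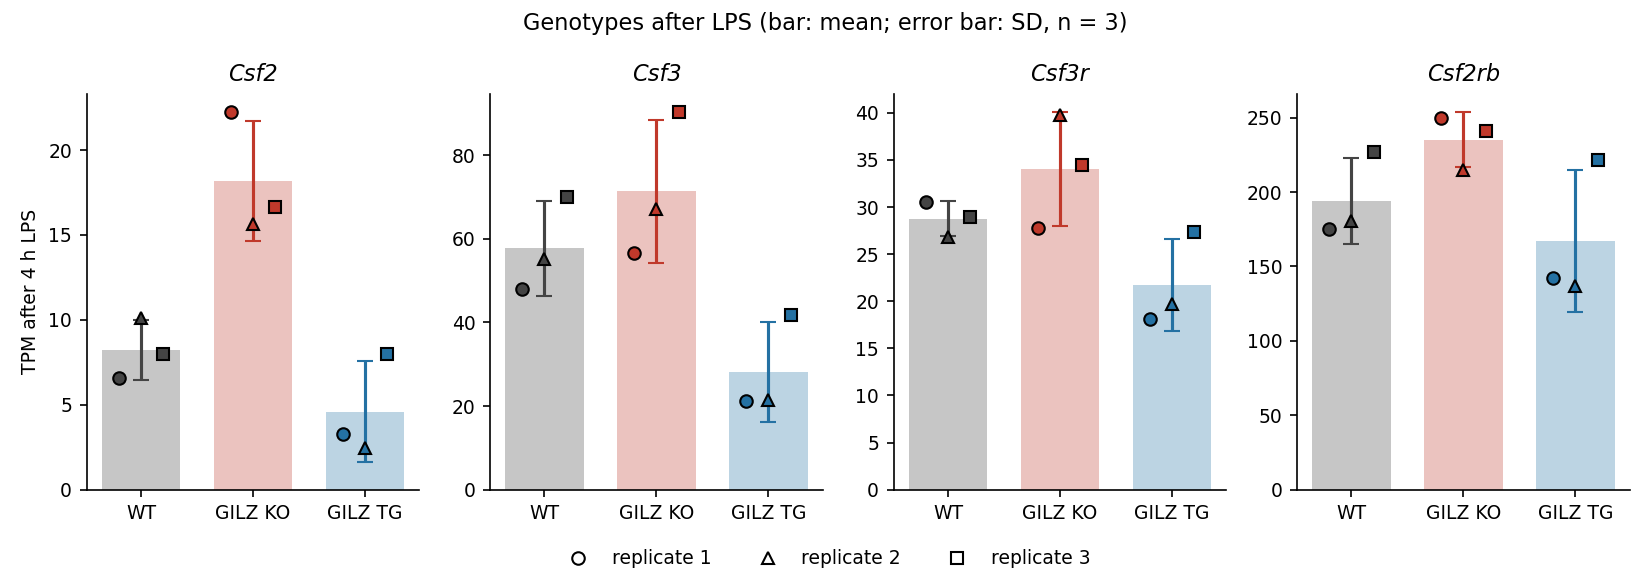
TPM of Csf2, Csf3, Csf3r and Csf2rb after LPS; bars are means, error bars SD (n = 3) and symbols the replicates. In each panel GILZ KO has the highest mean and replicate 3 of GILZ TG is the highest of its group.

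The LPS response itself was compared between genotypes in 1 fit of all libraries. None of the 8 genes was called by edgeR in GILZ KO against WT, in GILZ TG against WT or in GILZ KO against GILZ TG, where 0.0152%, 0.00759% and 0.121% of genes were called. Csf1 had an unadjusted p below 0.05 in both comparisons with GILZ TG, with a response lower by 0.66 (SE 0.24, log2 scale) than in WT and 0.74 (SE 0.24) higher in GILZ KO than in GILZ TG, at adjusted p of 1 and 0.247. Without preparations 1 and 2 of GILZ TG these became 0.10 (SE 0.21) and -0.02 (SE 0.21), within their error of 0, with the 1 GILZ TG preparation left assumed to vary like the other groups. When untreated replicate 3 of GILZ TG was left out instead, the Csf1 response was called lower in GILZ TG than in WT. It was also called higher in GILZ KO than in GILZ TG. Over all genes, leaving out 1 library gave 1 to 8 and 0 to 82 calls in these 2 comparisons. With the replicate number within each genotype as a block, 144 genes in place of 16 were called in GILZ KO against GILZ TG, none of them among the 8. DESeq2 called 0 in all 3, and limma called 1, Csf2 in GILZ KO against GILZ TG with a pseudocount of 1 (1.97, adjusted p = 0.0482). For Csf2, the response in GILZ KO exceeded that in GILZ TG by 2.76 with a 95% interval of -0.22 to 5.73, a width set by the few untreated reads.

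Promoters were taken from the RefSeq table of GRCm38.p6, which held windows of 300 bases, 250 before to 50 after the start, for 5 of the 8 genes. The motif searched as GGGANNNNCC on both strands, a simplified NF-kB site, was found 3 times in Csf1, where 2 matches overlap, once each in Csf3r and Csf2, and not in Csf2rb2 or Csf2ra, and 20.7% of 32817 windows held it. GAGGAA, the core bound by PU.1, occurred once in Csf3r and 2 times each in Csf2rb2 and Csf2ra, against 28.3% of windows. The AP-1 motif TGANTCA (7.81% of windows), the cytokine element GAGATTCCA (0.229%) and TATAAA (13.6%) were in none of the 5 windows. The Csf2 window ended 183 bases before the start given by GENCODE, so the promoter of that transcript was not covered. The windows of the 2 genes that rose on both scales and had a start in range are shown with matches of the first 2 motifs in capitals, for Csf1 at chr3:107760420-107760719 on the minus strand and for Csf3r at chr4:126024409-126024708 on the plus strand, where the RefSeq start lies 109 bases downstream of that of GENCODE.
Csf1: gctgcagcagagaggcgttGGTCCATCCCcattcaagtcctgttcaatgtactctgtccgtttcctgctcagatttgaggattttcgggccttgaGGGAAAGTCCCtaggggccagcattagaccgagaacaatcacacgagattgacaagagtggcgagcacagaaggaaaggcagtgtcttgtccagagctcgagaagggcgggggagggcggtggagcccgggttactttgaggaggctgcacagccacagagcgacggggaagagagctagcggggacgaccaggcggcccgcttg
Csf3r: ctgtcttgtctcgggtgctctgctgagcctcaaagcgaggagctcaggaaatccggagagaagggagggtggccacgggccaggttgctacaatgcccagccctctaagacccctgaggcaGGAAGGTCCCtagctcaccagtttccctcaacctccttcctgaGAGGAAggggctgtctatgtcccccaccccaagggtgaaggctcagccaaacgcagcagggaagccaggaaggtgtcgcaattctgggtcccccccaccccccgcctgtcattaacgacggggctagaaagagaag

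The wider pathway was described by lists in WT, where 33.5% of genes were called higher and 35.1% lower with TMM, and the median of all genes was -0.02. With library totals, 2100 of the 13169 genes were called higher and 8990 lower. Of 13 related ligands and receptors, 4 were tested, with a median of 0.08, of which 2 were higher and 1 was lower. With library totals, 1 of them was higher and 2 were lower. Kitl, the ligand of KIT, fell from 36.0, 28.8 and 26.4 to 13.2, 12.2 and 12.6 TPM, and did so on both scales. Il3ra, the alpha subunit of the IL-3 receptor, was at 33.8 ± 1.94 and 36.8 ± 3.28 TPM (SD, n = 3), called with TMM (0.75) and not with library totals (0.08, adjusted p = 0.492, edgeR). Il34, the second ligand of CSF1R, went from 0.413 ± 0.191 to 1.06 ± 0.202 TPM. Il3, the neighbour of Csf2 at a distance of 15635 bases, was listed at 0 in all 18 libraries.

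Of 22 genes of receptor signalling, 15 were higher and 1 was lower, with a median of 0.62, and 8 were higher and 10 lower with library totals. Jak2, the kinase bound to the beta subunit, rose from 17.0 ± 2.80 to 192 ± 16.6 TPM, and Stat3, which carries the G-CSF signal, from 34.9 ± 2.89 to 136 ± 17.4 TPM. Lyn, a Src-family kinase gene, rose from 96.5 ± 5.06 to 322 ± 32.4 TPM. These 3 genes were higher on both scales.

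Of 14 genes of feedback and receptor turnover, 8 were higher and 2 lower, with a median of 0.91, and 7 and 7 with library totals. The cytokine signalling inhibitors led them. Socs1 went from 3.34 ± 0.364 to 222 ± 15.2 TPM, Socs3, which limits CSF3R signalling, from 24.0 ± 2.99 to 947 ± 52.2 TPM, Cish, a target of STAT5, from 0.373 ± 0.133 to 16.1 ± 1.61 TPM, and Socs2 from 0.273 ± 0.0569 to 2.37 ± 0.183 TPM.

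Of 14 myeloid transcription factors, 7 were higher and 3 lower, with a median of 0.62, and 6 and 6 with library totals. Cebpd rose from 16.1 ± 6.08 to 159 ± 29.3 TPM and Maf from 55.2 ± 5.80 to 160 ± 13.8 TPM. Cebpa, a factor of granulocyte and monocyte commitment, fell from 29.6 ± 4.23 to 2.24 ± 0.173 TPM, also with library totals.

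Of 12 genes known to respond to colony-stimulating factors, 8 were higher and 4 lower, with a median of 1.80, and 7 and 4 with library totals. The chemokine genes Ccl17 and Ccl22 led, Ccl17 with 0 TPM in each untreated library and 11.6, 21.9 and 47.3 TPM after LPS, and Ccl22 with 0.377 ± 0.0513 and 48.3 ± 9.60 TPM. Pim1, a kinase gene downstream of STAT5, rose from 28.5 ± 3.03 to 449 ± 24.4 TPM and the cyclin gene Ccnd2 from 13.5 ± 1.68 to 77.9 ± 5.56 TPM. Several genes of this list are also known targets of LPS.

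Of 9 genes of cytokine mRNA turnover, 5 were higher and 3 lower, with a median of 0.33, and 4 and 5 with library totals. Zfp36, which encodes tristetraprolin, rose from 153.7, 149.0 and 147.95 TPM to 1090 ± 50.6 TPM, and Zc3h12a, the nuclease Regnase-1, from 29.8 ± 1.85 to 142 ± 18.2 TPM. The tristetraprolin relatives Zfp36l1 and Zfp36l2 fell, from 13.0 ± 0.889 to 1.99 ± 0.478 and from 186 ± 5.46 to 42.0 ± 8.25 TPM, on both scales. All 10 genes of a check for the LPS response were higher, with a median of 8.82, led by Nos2 at 344 ± 42.7, Il6 at 1040 ± 153, Ccl5 at 5940 ± 234 and Il1b at 4400 ± 575 TPM after LPS, against 0.133, 0.537, 4.34 and 6.44 TPM in untreated WT.

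Between genotypes, Kitl was higher than in WT in untreated GILZ KO by 1.08 (SE 0.09, adjusted p = 0.00102, edgeR) and in untreated GILZ TG by 1.09 (SE 0.09, adjusted p = 0.000591), with 72.7, 67.5 and 69.8 TPM and 73.1, 67.9 and 51.3 TPM against 26.4 to 36.0 TPM. Relative to WT, Tsc22d3 RNA was lower in GILZ KO and higher in GILZ TG, whereas Lyz2 RNA was lower in both. The part of either in the Kitl level was not tested. For GILZ TG the difference was 0.86 (adjusted p = 0.00734, edgeR) without preparations 1 and 2 of GILZ TG, which leaves 1 GILZ TG library that is assumed to vary like the other groups. After LPS it was higher in GILZ TG than in WT by 0.65 and at -0.60 in GILZ KO relative to GILZ TG, with 17.4 to 24.2 TPM in GILZ TG, and without preparations 1 and 2 they were at 0.41 and -0.37 and not called. Between untreated GILZ KO and GILZ TG, Egr2 was at -1.41 (SE 0.20, adjusted p = 0.00697), and in GILZ TG against WT it was called at 1.07, and at 0.59 (adjusted p = 0.302, edgeR) not called without preparations 1 and 2. The other genes called there were Pik3cg, Cblb, Adam17 and Fli1, all higher in GILZ KO by at most 0.49, and Bhlhe40 and Zfp36l1, lower at -0.40 and -0.72, and none of these 7 was called without preparations 1 and 2, where Cblb was at 0.56 and Bhlhe40 at -0.61, farther from 0 than with them, and the other 5 closer to 0. After LPS, Il12b was higher in GILZ KO than in GILZ TG by 1.43 (SE 0.18, adjusted p = 0.00585) and by 1.91 (adjusted p = 0.00463, edgeR) without those preparations, under the same assumption for the 1 library left. Pik3cg, Ptpn1 and Irf8 were called there at 0.50, 0.50 and -0.57, and without them were at 0.30, 0.42 and -0.46 and not called.

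The genes most like each member across the 18 libraries were found among 11683 genes by Pearson's r of log2(TPM + 1), a description in which all libraries of a treatment share the LPS shift. For Csf1 these were Rcn1, Rapgef2 and Fcgr1 (r of 0.997, 0.996 and 0.996), for Csf3 Shisa3, Vasp and Saa3 (0.997, 0.996 and 0.996) and for Csf2 Adora2b, Sntb1 and Rras2 (0.982, 0.980 and 0.979). Csf3r was closest to Coa5, Sppl2a and 4930430E12Rik (0.991, 0.990 and 0.989), and Csf1r to Pidd1, Cnst and Slc35b4 (0.996, 0.996 and 0.995). Csf2ra and the beta subunit genes had looser neighbours, with Ctnnd2, Thg1l and Pltp for Csf2ra (0.845, 0.827 and 0.802), Litaf, Sde2 and Appl1 for Csf2rb (0.924, 0.914 and 0.910) and Acbd3, Ube4a and Armcx3 for Csf2rb2 (0.885, 0.878 and 0.854).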

How the data were processed

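RNA-seq was available for 18 libraries, 3 for each of 6 groups, and groups and replicate numbers were taken from the sample labels. Poly(A) RNA was sequenced with reads of 75 bases, and the authors checked reads with FastQC 0.11.2 and mapped them to GRCm38 (mm10) with the grape-nf pipeline. The deposited tables give for each gene the expected count, which estimates its reads and is not normalized, and the TPM, which the authors scaled by transcript length and library total. Their DESeq2 1.40.2 tables hold fold changes, p-values and test statistics, of which only the gene symbols were used. The empty last row of 14 tables, which holds no reads, was left out.

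Expected counts were rounded and filtered with filterByExpr. The tests were quasi-likelihood tests in edgeR 4.0.16 (R 4.3.3) with TMM factors, Benjamini-Hochberg adjustment over all genes and a threshold of 0.05. LPS changes and their differences were fitted on all 18 libraries (13169 genes), and genotypes on the 9 libraries of a treatment (12621 genes untreated, 12164 after LPS). Replicates were independent preparations per the study. Preparations with the same number did not deviate together throughout. A correlation above 0.1 was found in 4 of 9 pairs of untreated and LPS libraries and in 2 of 18 pairs of genotypes. All 3 pairs of GILZ TG were above it (0.266, 0.397 and 0.605), as was 1 of WT and none of GILZ KO. No block was used, and the block is an alternative. Intervals of summed reads are exact binomial intervals for counting error only.

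Simulated data with 200 changed genes were used to check edgeR. In GILZ TG against WT after LPS it recovered 74.5% of 102 genes changed by 1 and 92.9% of 98 changed by 2 (log2). Of its calls 5.11% were false. A second comparison in the same simulated data, between groups without changed genes, gave 1 call. Untreated, the same comparison gave 79.8% and 89%, with 6.15% false among its calls and 0 calls without changes. LPS against untreated in WT gave 83.3% and 93.9%, with 3.28% false and 0 calls without changes. In the measured libraries this comparison called 9037 of 13169 genes, against the 200 genes changed here. The false share with so many genes changed was not tested. The alternatives were DESeq2 1.42.0, limma 3.58.1 on log2(TPM + 1) and log2(TPM + 0.1), other size factors, other filters (none, or 1 CPM in 3 libraries), other sets of libraries, a replicate block and each library left out. Scaling by library totals and leaving out preparations 1 and 2 of GILZ TG were chosen after seeing the data. Members and lists were chosen with earlier results of these data known. Flt3l, of the related ligands, was not analysed here.

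The genes named were the 8 members, Tsc22d3 and Lyz2, of each list up to 4 genes with the largest LPS change in WT and every gene called between genotypes, the 3 genes most like each member among those with a mean of at least 1 TPM, and of each marker list the most abundant gene and genes at 0. Il3, Rsad2, Cxcl10 and the marker genes Col1a2, Col3a1, Ltf, Igkc, Cd79b and C1qa lie outside this rule and were chosen once their values had been seen. A few genes that the rule names are not reported here. Promoters are from RefSeq and 3′ UTRs from GENCODE vM21, and sequences were matched by symbol. Figures were drawn with matplotlib.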

Additional observations from a re-analysis of the deposited data

Results flagged for a closer look

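The LPS response of Kitl differed between GILZ KO and WT. It was lower by 1.06 on the log2 scale in GILZ KO than in WT (log2 difference -1.06, adjusted p = 0.0372, edgeR, interaction term over all 18 libraries), with 72.7, 67.5 and 69.8 TPM before and 12.8, 17.2 and 12.2 TPM after LPS in GILZ KO, against 36.0, 28.8 and 26.4 and then 13.2, 12.2 and 12.6 TPM in WT. In GILZ TG it was at 73.1, 67.9 and 51.3 TPM before and 24.2, 22.2 and 17.4 TPM after LPS, and its response was not called against WT or GILZ KO. Both GILZ KO and GILZ TG also held less Lyz2 RNA than WT, and the part of this in the Kitl values was not tested.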

How the results depend on the processing

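The 90 log2 changes of members were recomputed under the alternatives that apply to each, giving 1563 values, of which 1488 kept their side of the threshold, 27 lost it, 30 gained it and 18 turned direction. The values that turned with a call on either side were the LPS changes of Csf2ra and Csf2rb2. Csf2ra was -0.11 in WT, -0.04 in GILZ KO and -0.11 in GILZ TG with limma on log2(TPM + 1) and on log2(TPM + 0.1), and -0.16, -0.04 and -0.15 with library totals. Csf2rb2 was -0.06, -0.19 and -0.23 with limma and -0.12, -0.19 and -0.28 with library totals. TPM and library totals do not remove the shift of the median gene. In 49 further values the sign changed with neither value past the threshold.

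In untreated GILZ KO against GILZ TG, 1 member was called, and 2 with DESeq2, 0 with limma at either pseudocount, 0 with only the 6 libraries compared and 0 without preparations 1 and 2 of GILZ TG. Leaving out 1 library gave 0 to 1, with 1 only without replicate 3 of GILZ TG. After LPS the same comparison gave 2 members, and 4 without a filter, 1 and 0 with limma at a pseudocount of 1 and 0.1, 0 without those preparations, and 0 to 5 with 1 library left out, the 5 without replicate 3 of GILZ TG. GILZ TG against WT gave 0 after LPS, and 1 (Csf3) without a filter, with a replicate block and with all 18 libraries in one fit, and 0 to 4 with 1 library left out, the 4 (Csf2, Csf3, Csf3r and Csf2rb) without replicate 3 of GILZ TG. Untreated, it gave 0, and 0 to 1 with 1 library left out, the 1 (Csf1) without replicate 3 of GILZ TG. The LPS responses gave 0, 1 in GILZ KO against GILZ TG with limma at a pseudocount of 1, and 0 to 1 with 1 library left out in both comparisons with GILZ TG. The gene called with 1 library left out was Csf1, without untreated replicate 3 of GILZ TG. The cause was not tested. With the replicate block, Csf3r was also called after LPS in GILZ KO against GILZ TG, and 11 of 18 libraries correlated best with one of their own number.

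Over all genes, and with no single library left out, calls ranged from 34 to 1218 in untreated GILZ KO against GILZ TG (623 in the reported fit), from 34 to 822 after LPS (316), from 20 to 312 and from 8 to 412 in GILZ TG against WT (81 and 56), from 8 to 79 and from 4 to 100 in GILZ KO against WT (12 and 10), and for the LPS responses from 1 to 21, 0 to 2 and 0 to 144 (2, 1 and 16). With 1 library left out they ranged from 79 to 1306 and from 24 to 1403 in GILZ KO against GILZ TG, from 16 to 665 and from 15 to 1067 in GILZ TG against WT, from 5 to 6 and from 4 to 23 in GILZ KO against WT, and for the responses from 1 to 4, 1 to 8 and 0 to 82. These ranges do not tell which number belongs to which library left out. Depth limits Csf2 and Csf3 in untreated cells, where a library held at most 7 reads.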
